A study of Mus musculus with 13 samples.

Results

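Scavenger receptors are cell surface and lysosomal proteins grouped by what they bind, among it oxidized or acetylated low-density lipoprotein (LDL), and 9 of their genes were followed here in the atherosclerotic mouse aorta. The genes were chosen by name from the 56953 genes of the count table: Cd36, Scarb1 and Scarb2 (class B), Msr1 and Marco (class A), Olr1, Cxcl16, and Stab1 and Stab2 (the stabilins). All 9 were found, and 8 of them passed the filter on low counts that 18055 genes passed. Marco did not, and it is given below by its counts. The study measured RNA of whole aorta from ApoE-/- mice, which lack apolipoprotein E and develop atherosclerosis. All mice, controls included, carried this genotype and were fed Western diet (WD) for 16 weeks, beginning at an age of 6 weeks. The WD group (5 libraries) had the diet alone, the auranofin group (3 libraries) had auranofin at 3 mg/kg/day, the atorvastatin group (3 libraries) had atorvastatin at 10 mg/kg/day, and the combination group (2 libraries) had both drugs at these doses. Auranofin is a gold compound that inhibits thioredoxin reductase, atorvastatin is a cholesterol-lowering statin, and the study asked whether auranofin affects the progression of atherosclerosis.

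In the arterial wall, macrophages take up modified LDL through these receptors. Scavenger receptors are not shut off by the cholesterol that enters the cell, and the loaded macrophage becomes a foam cell. The genes are not all macrophage genes. CD36 is also the fatty acid carrier of fat, muscle and capillary endothelium, SR-BI (Scarb1) exchanges cholesterol with high-density lipoprotein, and LIMP-2 (Scarb2) sits in the lysosomal membrane of most cells and carries beta-glucocerebrosidase there. LOX-1 (Olr1) is known best from endothelium and macrophages, CXCL16 is both a membrane receptor for oxidized LDL and a chemokine, and the stabilins clear ligands from the blood in sinusoidal endothelium, stabilin-1 being also a receptor of resident macrophages.

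The 13 libraries held 19703683 to 26079566 counts. Levels are given as CPM, counts relative to a library size scaled by the trimmed mean of M-values (TMM). The TMM factors ran from 0.629 in auranofin 2 and 0.639 in WD 2 to 1.23 in WD 1 and WD 4. A low factor raises every CPM of its library. Contractile smooth muscle markers were detected in every library, at a summed 6003 to 27325 CPM over 6 genes. Auranofin 2 stood apart: mitochondrial genes took 38.8% of its counts against 9.36% to 26.9% elsewhere, its B cell markers summed to 675 CPM against at most 66.6 in any other library, its endothelial markers to 2668 CPM against at most 1076, and its smooth muscle sum was the lowest. WD 3 and WD 5 had the lowest macrophage sums (10 genes), 371 and 644 CPM against 2331 to 5054 CPM in the other WD libraries. The labels do not tie libraries to named animals, so the p-values measure the spread between these libraries. No gene passed a Benjamini-Hochberg adjusted p of 0.05 in the edgeR quasi-likelihood test in any of 7 comparisons.

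Levels per length separated the 9 genes over more than 3 orders of magnitude in the untreated WD aorta. Dividing CPM by the exon length of each gene in kilobases gave 45.6 ± 25.0 CPM per kb (SD, n = 5) for Cd36, 36.7 ± 4.42 for Scarb2, 19.3 ± 14.2 for Cxcl16, 7.35 ± 2.53 for Stab1, 3.29 ± 2.80 for Msr1 and 2.69 ± 0.623 for Scarb1. Olr1 followed at 0.552 ± 0.465, Stab2 at 0.134 ± 0.111 and Marco at 0.0294 ± 0.0229 CPM per kb. In this order each gene's range over the 5 WD libraries overlapped that of the next, with 1 exception: the lowest Scarb1 level (1.79) lay above the highest Olr1 level (0.972).

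Of the class B receptors, Scarb2 was the steadiest, and Scarb1 varied more than it but less than the median gene. Scarb2 read 234, 186, 241, 233 and 261 CPM in WD 1 to WD 5, then 276, 236 and 273 CPM in the auranofin libraries, 242, 254 and 237 CPM with atorvastatin, and 220.0 and 304 CPM with the combination. Its standard deviation of log2 CPM over the WD libraries was 0.18, with 6.57% of tested genes below it and a median over genes of 0.49. Scarb1 read 15.2, 27.9, 19.9, 26.9 and 24.5 CPM in WD, 25.2, 27.5 and 23.1 with auranofin, 14.8, 27.9 and 27.9 with atorvastatin, and 17.97 and 32.8 with the combination. The standard deviation of log2 CPM over the WD libraries was 0.36 for Scarb1, with 30.8% of tested genes below it. The groups overlapped for both genes. The fitted log2 fold changes against WD were 0.18 (SE 0.19), 0.08 (SE 0.19) and 0.18 (SE 0.21) for Scarb2 with auranofin, atorvastatin and the combination, and 0.14 (SE 0.27), 0.04 (SE 0.27) and 0.15 (SE 0.31) for Scarb1.

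Msr1, Olr1, Cxcl16 and Stab2 varied most among the untreated aortas. Msr1, the class A receptor that takes up acetylated and oxidized LDL, read 34.4, 23.5, 2.86, 41.1 and 2.33 CPM in WD 1 to WD 5. The 2 low values are WD 3 and WD 5, and the highest WD value was 17.6 times the lowest. Cxcl16 read 90.0, 112, 12.5, 55.0 and 21.2 CPM in the same libraries, with the same 2 at the bottom. Olr1 read 2.86, 3.18, 0.286, 3.47 and 0.0507 CPM, from 80, 53, 7, 95 and 1 counts, and Stab2 read 2.40, 1.501, 0.163, 1.61 and 0.203 CPM, from 67, 25, 4, 44 and 4 counts. All 4 genes thus had their 2 lowest WD values in WD 3 and WD 5. The SD of log2 CPM over the WD libraries was 1.99 for Msr1, 2.18 for Olr1, 1.56 for Stab2 and 1.36 for Cxcl16, above that of 99.1%, 99.5%, 97.4% and 95.6% of tested genes. The macrophage marker sum had a ratio of 13.6 between its highest and lowest WD library. Foamy macrophage markers (8 genes) summed to 665 and 477 CPM in WD 3 and WD 5, against 4520 to 5918 CPM in the other WD libraries. Resident adventitial macrophage markers (6 genes) differed: their sum was 283 CPM in WD 3 but 612 CPM in WD 5. That was the second highest of the 13 libraries, and Cbr2 made up 524 CPM of it. In bulk tissue, fewer macrophages and less RNA of a gene per macrophage cannot be told apart.

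**Figure D1:**
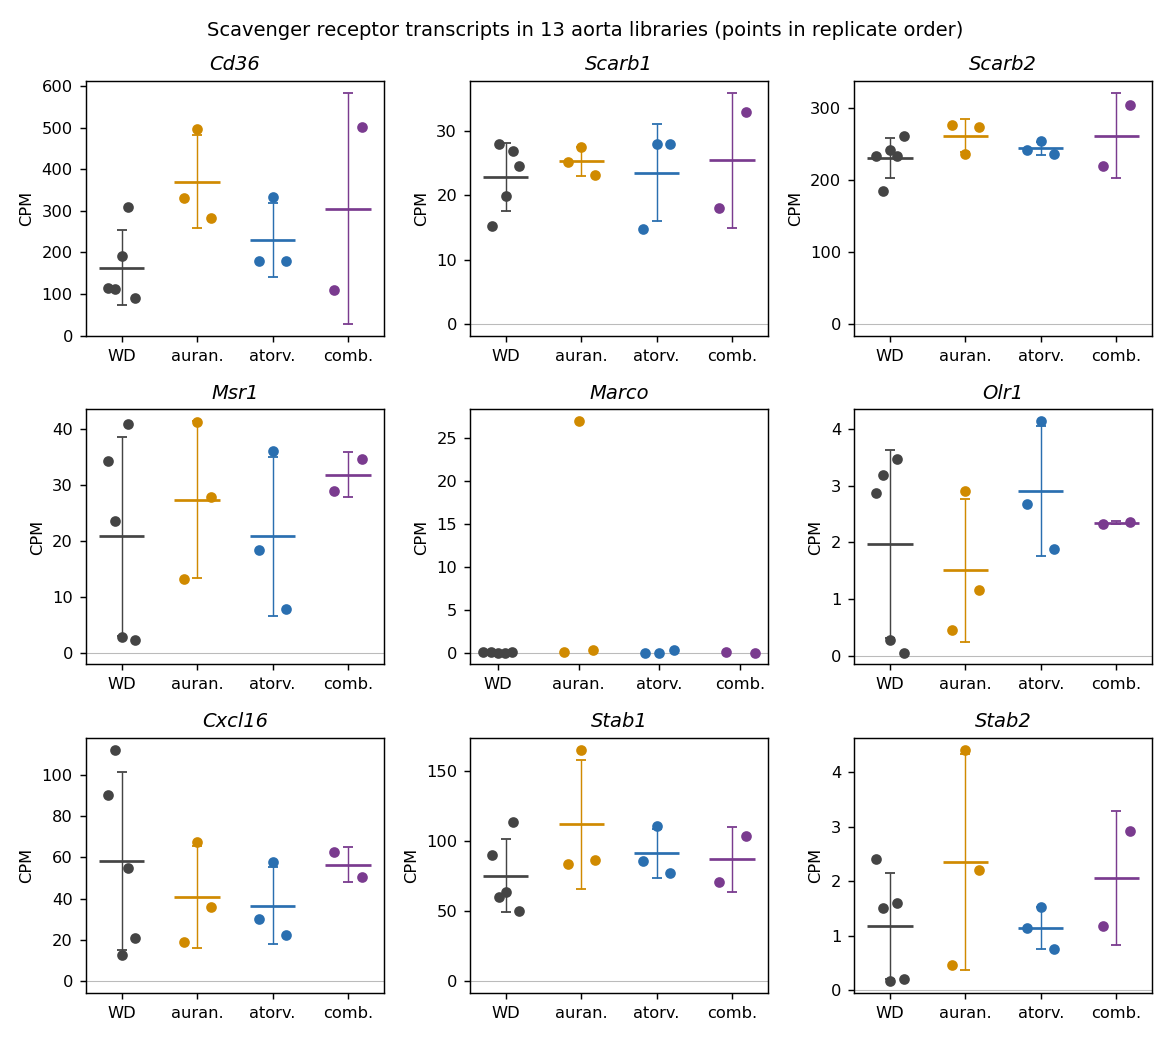
CPM of the 9 scavenger receptor genes (vertical axes, each with its own scale) in the 4 treatment groups; points are libraries in replicate order, horizontal lines group means and bars SD, both left out for Marco. Msr1, Olr1, Cxcl16 and Stab2 each have 2 low WD points, WD 3 and WD 5, while Scarb2 stays between 186 and 304 CPM in all 13 libraries.

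With treatment, Msr1 and Cxcl16 stayed at or within the WD extremes. Msr1 read 13.2, 41.3 and 27.9 CPM with auranofin, 18.5, 36.1 and 7.94 with atorvastatin, and 29.0 and 34.8 with the combination, all between the WD extremes but for auranofin 2, level with WD 4. Cxcl16 read 19.2, 67.5 and 35.9 CPM with auranofin, 30.0, 57.6 and 22.4 with atorvastatin, and 62.3 and 50.3 with the combination, all within the WD range. Auranofin 1 and atorvastatin 3 were the lowest of their groups for both genes, and their macrophage sums, 944 and 746 CPM, were also the lowest of their groups. Over the 13 libraries Cxcl16 followed the macrophage sum from 12.5 CPM in WD 3 to 112 CPM in WD 2, which had the lowest and the highest sum, 371 and 5054 CPM. Msr1 did not follow it at the top: WD 2 held 23.5 CPM of Msr1, below WD 1 and WD 4, whose macrophage sums were 3239 and 2331 CPM. The place of WD 2 at the top of Cxcl16 depends on its TMM factor of 0.639. Its raw Cxcl16 counts were 1867, against 2516 in WD 1 with a factor of 1.23. The same factor scales the macrophage sum of WD 2. Raw Msr1 counts were 392 in WD 2, 962 in WD 1 and 1124 in WD 4. The part of macrophage content in these levels was not tested.

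**Figure D2:**
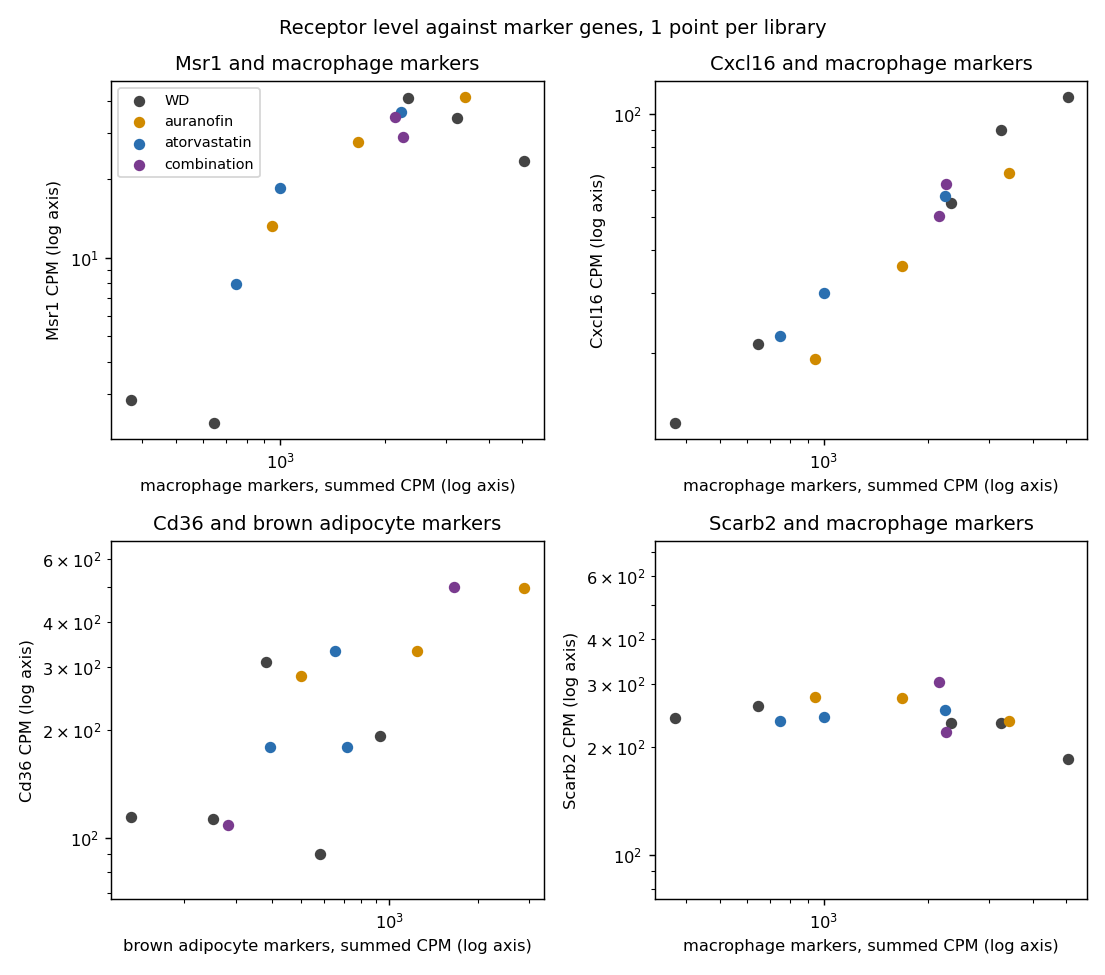
Msr1, Cxcl16 and Scarb2 CPM against the summed CPM of 10 macrophage markers, and Cd36 CPM against the summed CPM of 7 brown adipocyte markers (both axes log, 1 point per library, coloured by group). Cxcl16 climbs with the macrophage sum from 12.5 to 112 CPM, Msr1 does not exceed 41.3 CPM, Scarb2 stays between 186 and 304 CPM, and the Cd36 points spread from 90.2 to 503 CPM.

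Olr1 and Stab2 were low throughout. Olr1 read 0.459, 2.90 and 1.15 CPM with auranofin, 2.68, 4.14 and 1.89 with atorvastatin, and 2.33 and 2.36 with the combination. Stab2 read 0.459, 4.41 and 2.20 CPM with auranofin, 1.13, 1.52 and 0.756 with atorvastatin, and 1.18 and 2.93 with the combination. Its highest value was that of auranofin 2, and its lowest value among the treated libraries that of auranofin 1. Olr1 in atorvastatin 2, and Stab2 in auranofin 2 and combination 2, lay above the highest WD library, and both genes overlapped WD in every drug group. The table of RefSeq promoters (build GRCm38.p6) held 6 of the 9 genes: Cd36, Scarb2, Olr1, Marco, Stab1 and Stab2. The 250 bases before the start site are shown for Olr1 and Stab2, which had their 2 lowest WD levels in WD 3 and WD 5, and for Cd36, which was low in WD 5 alone of these, each 5′ to 3′ on the minus strand, with matches to the motifs of PU.1 (the macrophage lineage factor encoded by Spi1), AP-1 and the antioxidant response element in capitals.
Olr1 (chr6:129507166-129507415): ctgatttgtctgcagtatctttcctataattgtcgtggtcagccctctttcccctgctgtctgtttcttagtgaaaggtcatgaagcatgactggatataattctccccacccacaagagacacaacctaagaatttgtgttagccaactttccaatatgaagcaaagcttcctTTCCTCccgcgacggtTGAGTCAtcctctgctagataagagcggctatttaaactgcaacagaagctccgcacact
Stab2 (chr10:87007943-87008192): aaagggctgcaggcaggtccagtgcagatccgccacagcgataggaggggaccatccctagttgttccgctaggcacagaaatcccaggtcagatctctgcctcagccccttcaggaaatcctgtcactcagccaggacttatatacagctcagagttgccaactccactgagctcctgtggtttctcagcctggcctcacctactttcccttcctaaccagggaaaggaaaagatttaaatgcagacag
Cd36 (chr5:17835897-17836146): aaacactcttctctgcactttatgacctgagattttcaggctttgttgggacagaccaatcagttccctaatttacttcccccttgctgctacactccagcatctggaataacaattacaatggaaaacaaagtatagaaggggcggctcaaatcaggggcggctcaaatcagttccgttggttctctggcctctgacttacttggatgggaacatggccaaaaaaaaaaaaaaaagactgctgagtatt

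The motifs were searched on both strands as GAGGAA for PU.1, TGANTCA for AP-1, TGACNNNGC for the antioxidant response element and, by its name, as the consensus direct repeat bound by PPAR and RXR. In the Olr1 window, TTCCTC, the reverse complement of the PU.1 letters, starts 76 bases before the start site and TGAGTCA, an AP-1 match, 60 bases before it. Neither the Stab2 nor the Cd36 window held any of the 4 motifs. GAGGAA was also present 30 bases before the start of Stab1 and 146 bases before that of Marco, and TGACCGCGC, an antioxidant response element match, 99 bases before that of Scarb2. Of all 32851 promoter windows of this length, 23.3% held the PU.1 letters, 6.75% the AP-1 letters, 10.2% those of the antioxidant response element and 0.0335% the direct repeat, so 3 of 6 windows with GAGGAA is a description only. Spi1, named after its values were seen, read 6.38 and 11.1 CPM in WD 3 and WD 5 and 34.6 to 88.9 CPM in the other WD libraries. The part of PU.1 in the receptor levels was not tested.

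Cd36 had the largest fitted difference from WD among the 8 tested receptors in the auranofin group. It read 114, 112, 192, 309 and 90.2 CPM in WD, 331, 497 and 283 CPM with auranofin, 179, 333 and 179 CPM with atorvastatin, and 108 and 503 CPM with the combination. The auranofin libraries were higher than 4 of the 5 WD libraries; WD 4 lay above auranofin 3, so the groups overlapped. In raw counts, auranofin 1 to 3 held 7945, 7544 and 7589 of Cd36 and WD 4 held 8455, so the order of these libraries depends on the TMM scaling. The mean was 370.3 ± 112 CPM (SD, n = 3) with auranofin against 164 ± 89.9 (n = 5) in WD. The log2 fold change was 1.18 (SE 0.49), with an unadjusted p of 0.0316 in the edgeR model and a Benjamini-Hochberg adjusted p of 0.671, so Cd36 did not pass. It was 0.91 (SE 0.55) without auranofin 2 and 1.53 (SE 0.46, adjusted p 0.414 in edgeR) without WD 4. The 2 combination libraries stood far apart, at 108 and 503 CPM, and the fitted difference from WD was 0.90 (SE 0.55) with both, −0.59 without combination 2 and 1.61 without combination 1.

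In CPM, markers of fat were highest in the libraries with the most Cd36, combination 2 and auranofin 2, but did not follow it in every library. The brown adipocyte sum (7 genes) was 501 to 2878 CPM with auranofin, 132 to 929 CPM in WD and 394 to 717 CPM with atorvastatin, and it was 284 CPM in combination 1 and 1659 CPM in combination 2. The general adipocyte sum (8 genes) was 1022 to 1117 CPM with auranofin against 370.3 to 1062 CPM in WD, and 489 and 1742 CPM in combination 1 and 2. Capillary endothelial markers (4 genes) summed to 45.7 to 83.6 CPM with auranofin and 12.3 to 56.3 CPM in WD. No gene of these 3 lists was at 0 in any library. WD 5, with the lowest Cd36 of all 13 libraries at 90.2 CPM, had a brown adipocyte sum of 581 CPM, an adipocyte sum of 935 CPM and the highest capillary sum of the WD libraries, 56.3 CPM. WD 3 had 192 CPM of Cd36 beside 929 CPM of brown adipocyte markers. WD 4 had 309 CPM of Cd36 beside 382 CPM of brown adipocyte markers. It had the second highest striated and heart muscle sum, 461 CPM, after combination 2 with 1138 CPM. The muscle sum did not follow Cd36 in every library either. WD 1 had a muscle sum of 317 CPM beside 114 CPM of Cd36, and auranofin 2 one of 13.1 CPM beside 497 CPM. The part of these cell types in the Cd36 level was not tested.

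Stab1, the resident macrophage and endothelial receptor, varied less: its SD of log2 CPM over the WD libraries was 0.48. It read 90.4, 60.2, 63.5, 114 and 50.3 CPM in WD, 83.9, 166 and 86.8 with auranofin, 85.9, 111 and 77.6 with atorvastatin, and 70.7 and 104 with the combination. WD 4 and auranofin 2 were the highest and WD 5 the lowest, and the groups overlapped. Over the 13 libraries its log2 CPM correlated with that of Cd36 at r 0.80, of Stab2 at 0.75 and of Msr1 at 0.73. The log2 fold change with auranofin was 0.57 (SE 0.31), and 0.17 (SE 0.31) without auranofin 2. For Stab2 it was 0.98 (SE 0.80) with all libraries and 0.17 (SE 0.89) without auranofin 2, and limma put it at −0.37. For Olr1 it was −0.42 (SE 0.90) with all libraries, −1.28 (SE 1.06) without auranofin 2 and 0.02 without auranofin 1. For Msr1 it was 0.39 (SE 0.80) with all libraries and −0.02 (SE 0.94) without auranofin 2, and −0.14 with limma. Cxcl16 stood at −0.51 (SE 0.63), and at −1.08 (SE 0.73) without auranofin 2.

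**Figure D3:**
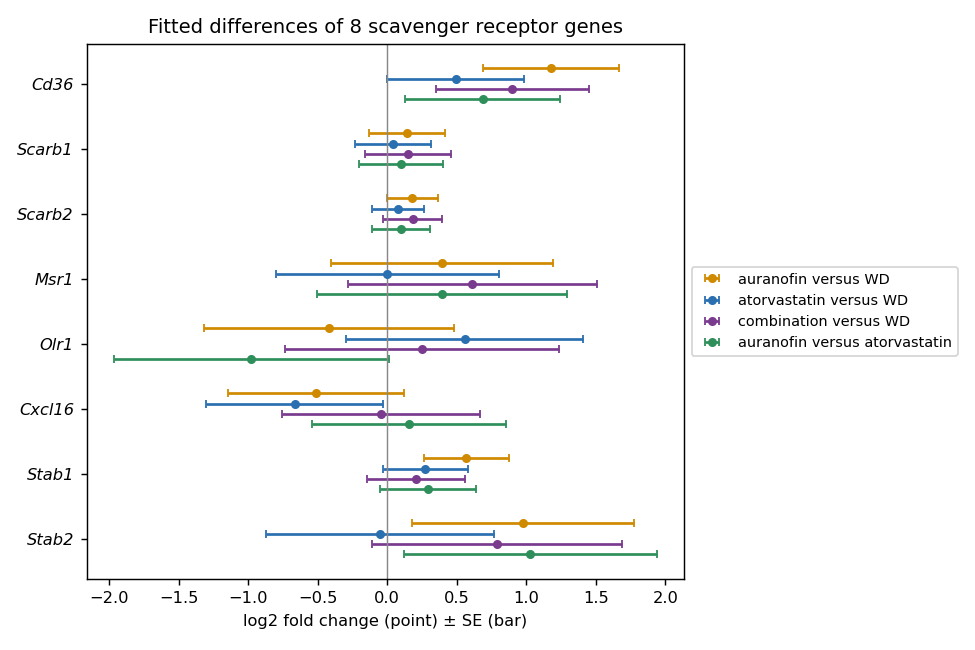
Fitted log2 fold change (points) with its standard error (bars) of the 8 tested receptors in 4 group comparisons. Cd36 with auranofin is farthest above 0 for its error, at 1.18 (SE 0.49). The intervals of Msr1, Olr1, Cxcl16 and Stab2 are wider than those of Scarb1 and Scarb2.

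Marco, a class A receptor of the macrophages that line lymphoid sinuses and the splenic marginal zone, was nearly confined to 1 library. Auranofin 2 held 410 counts, or 27.0 CPM, which is 93.6% of the 438 Marco counts of the series. The 12 other libraries held 28 counts together: 2, 2, 1, 0 and 1 in WD 1 to WD 5, 1 in auranofin 1, 8 in auranofin 3, 0, 1 and 9 with atorvastatin, and 3 and 0 with the combination. The highest level outside auranofin 2 was 0.378 CPM. The same library held the most B cell markers, 675 CPM, of which Ighm, the IgM heavy chain, made up 620 CPM, and the most T cell markers (6 genes), 25.4 CPM against at most 13.3 elsewhere. Hepatocyte markers (4 genes), which would come with liver tissue, summed to 19.7 CPM there and to 14.5 CPM in WD 4. Their part in the Marco counts was not tested. With no filter on low counts, Marco passed between auranofin and WD in edgeR at a log2 fold change of 7.21 (SE 1.27, adjusted p 0.0338 over 34567 genes), and without auranofin 2 it stood at 1.59 (SE 1.24, adjusted p 0.845), so that call is a statement about 1 library.

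**Figure D4:**
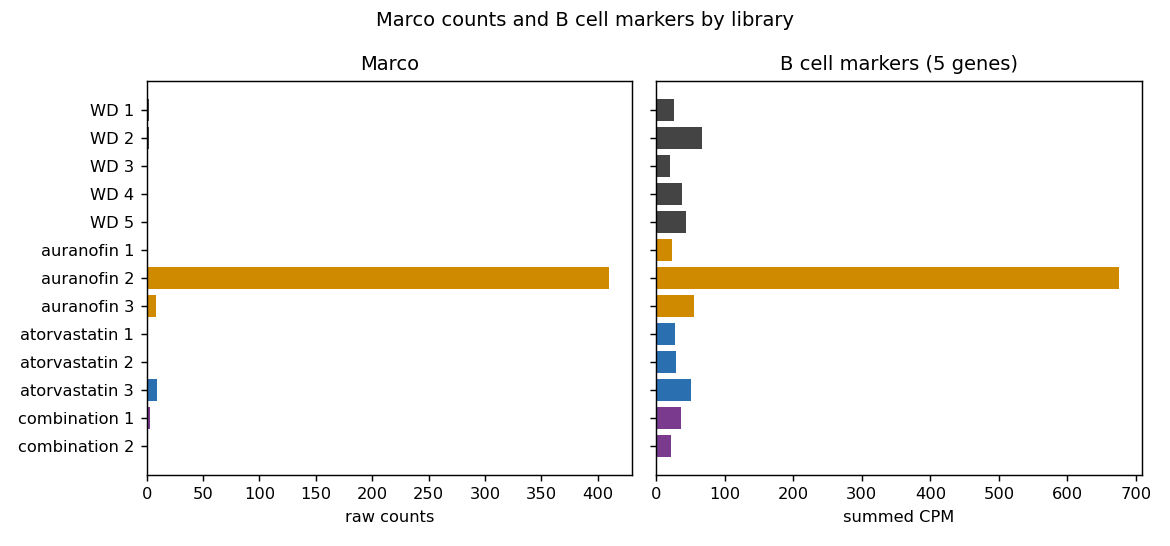
Raw Marco counts (left) and summed CPM of 5 B cell markers (right) in each of the 13 libraries, bars coloured by group. Auranofin 2 holds 410 of the 438 Marco counts and a B cell sum of 675 CPM, against at most 9 counts and 66.6 CPM elsewhere.

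Auranofin against WD asked what the gold compound does to the diseased aorta. None of the 8 tested receptors passed (0 of 18055 genes, 0%, at an adjusted p of 0.05 in edgeR; smallest adjusted p 0.671), while 1 of 8, Cd36, had an unadjusted p under 0.05, as had 1173 genes, 6.5% of all. The fitted change was above 0 for 6 of 8, against 46.4% of all genes, with a median of 0.29 against −0.04; limma put 4 of 8 above 0. No receptor's auranofin and WD libraries were free of overlap, where 1.45% of genes were higher and 1.32% lower without overlap. DESeq2 passed 2 genes and limma 0, none of them a receptor.

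Atorvastatin against WD, the comparison with the lipid-lowering reference drug, gave 0 of 8 receptors past the threshold (0%, 0 genes in edgeR; 2648 genes, 14.7%, at an unadjusted p under 0.05, none of the 8) and 0 genes in DESeq2 and limma. Cxcl16 was at −0.67 (SE 0.64), Olr1 at 0.56 (SE 0.85), Cd36 at 0.49 (SE 0.49), Stab1 at 0.27 (SE 0.31), Stab2 at −0.05 (SE 0.82) and Msr1 at 0.00 (SE 0.80) on the log2 scale. Without atorvastatin 2 these values were −1.15 for Cxcl16, 0.22 for Olr1, 0.13 for Cd36, 0.12 for Stab1 and −0.65 for Msr1. The fitted change was above 0 for 5 of 8, where 49.2% of all genes were, with a median of 0.06 against −0.01. No receptor was free of overlap, against 2.83% of genes higher and 2.87% lower. The comparison of the combination with WD likewise passed 0 of 8 (0%, 0 genes in edgeR; 265 genes, 1.47%, at an unadjusted p under 0.05, none of the 8; DESeq2 4 genes, limma 0), with Stab2 at 0.79 (SE 0.90), Msr1 at 0.61 (SE 0.89), Olr1 at 0.25 (SE 0.98), Stab1 at 0.20 (SE 0.35) and Cxcl16 at −0.05 (SE 0.71). Here 7 of 8 were above 0, against 49.0% of all genes, and none was free of overlap, against 1.54% of genes higher and 1.75% lower. Without combination 2, 4 of 8 were above 0: Stab2 was then at 0.0072, Stab1 at −0.09, Scarb1 at −0.34 and Scarb2 at −0.07, while without combination 1 Stab2 was at 1.30. These 3 comparisons share the WD libraries.

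Between the 2 drugs, 0 of 8 receptors passed (0%, 0 genes in edgeR; 795 genes, 4.4%, at an unadjusted p under 0.05, none of the 8; DESeq2 5 genes, limma 0). Stab2 was at 1.03 (SE 0.91) and Cd36 at 0.69 (SE 0.56) in auranofin relative to atorvastatin, and Olr1 at −0.98 (SE 0.99). Without auranofin 2 they were at 0.23, 0.42 and −1.84, and limma put Stab2 at −0.28. The value was above 0 for 7 of 8, against 50.1% of all genes, but for 3 of 8 with limma and 4 of 8 without auranofin 2, and no receptor was free of overlap, against 5.91% of genes higher and 7.63% lower. With auranofin given or not over all 13 libraries, 0 of 8 passed (0%, 0 genes in edgeR, 0 in DESeq2 and 0 in limma), and Cd36, at 0.89 (SE 0.38, adjusted p 0.998 in edgeR), was the 1 of 8 with an unadjusted p under 0.05, beside 2.69% of all genes. Its value was 0.69 without auranofin 2. The value was above 0 for 6 of 8 receptors, against 44.6% of all genes. With atorvastatin given or not, 0 of 8 passed (0%, 0 genes in edgeR, 0 in DESeq2 and 0 in limma; 7.08% of all genes at an unadjusted p under 0.05, none of the 8), and the 8 values lay between −0.20 for Cxcl16 and 0.60 for Olr1, 6 of 8 above 0 against 50.4% of all genes, but 3 of 8 without WD 3 and 2 of 8 without atorvastatin 2. The interaction of the drugs, the test of whether auranofin acts differently with and without the statin, passed 0 of 8 (0%, 0 genes in edgeR, 11 in DESeq2, 0 in limma; 3.1% of all genes at an unadjusted p under 0.05, none of the 8), with Cxcl16 at 1.13 (SE 0.99), Cd36 at −0.77 (SE 0.80) and Stab1 at −0.64 (SE 0.50), and 3 of 8 above 0 against 52.3% of all genes. With 1 library left out the number above 0 ran from 1, without WD 4 or auranofin 1, to 6, without combination 1. The Cd36 value was −0.04 without combination 1 and −2.26 without combination 2, Stab1 was at −0.24 without auranofin 2, and Cxcl16 was at 1.70 without it.

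The genes most like each receptor over the 13 libraries fell into different kinds. These are Pearson correlations of log2 CPM among 12977 genes, given as descriptions, since libraries share their treatment and cell mixture. Msr1 was nearest to Mmp12, the macrophage elastase (r 0.99, Spearman 0.97), followed by Lilrb4b and Rnf128. Cxcl16 was nearest to Pltp, the phospholipid transfer protein (r 0.98, Spearman 0.98), Pstpip1 and Pld3, and Olr1 to Mefv, the pyrin gene (r 0.96, Spearman 0.91), P4ha3 and Fgd3. For Stab2 they were Ptpn22, a phosphatase of lymphocytes (r 0.96, Spearman 0.90), Plcl2 and Themis2. For Cd36 they were Tmeff1 (r 0.97, Spearman 0.97), Pde8a and Tbc1d4, which governs glucose transporter traffic in fat and muscle, and for Scarb1 Cfd, the adipokine adipsin (r 0.92, Spearman 0.77), Serpina3c and Cyp2e1. Stab1 was nearest to Arap3 (r 0.97, Spearman 0.92), Man1a and Adam10, a sheddase that releases CXCL16. Scarb2 was nearest to Myorg (r 0.91, Spearman 0.87), Jade1 and Mfn1, and for Myorg r was 0.66 without the 2 libraries farthest from the median of Scarb2. Between receptors, r was highest for Msr1 and Stab2 (0.92) and for Msr1 and Olr1 (0.87), and it was −0.02 for Cd36 and Cxcl16. The lowest values were those of Cxcl16 and Scarb2 (−0.47) and of Olr1 and Scarb2 (−0.34).

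Other receptors of the same kind were also followed. Of 18 further scavenger and lipoprotein receptors, all tested, 0 passed in any of the 7 comparisons, where 0 of all 18055 genes (0%) passed in edgeR. Lrp1, the large endocytic receptor of smooth muscle cells and macrophages, was at −0.88 (SE 0.30, adjusted p 0.826 in edgeR) in auranofin against atorvastatin, with its lowest level, 274 CPM, in auranofin 2. Scarf1, a scavenger receptor of endothelium, was at 0.87 (SE 0.27) with auranofin, where auranofin 2 read 26.2 CPM and no other library more than 12.9 CPM, and Scarf2 was at −0.68 (SE 0.28).

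Partners, ligands and shedding enzymes were measured with the receptors. Of the 17 tested, 0 passed in any comparison, where 0 of all 18055 genes (0%) passed in edgeR, and 0 had an unadjusted p under 0.05. Of all genes, 1.47% to 14.7% had such a p, depending on the comparison. With auranofin Adam10 was at 0.48 (SE 0.24), Fyn, a kinase that acts downstream of CD36, at 0.46 (SE 0.27) and Itgb5, an integrin subunit, at −0.60 (SE 0.33). Auranofin 2 was the extreme library for each of them. Adam10 read 122 CPM there against 79.9 and 81.3 in auranofin 1 and 3, and Fyn 33.7 against 20.7 and 20.6. Itgb5 read 132 CPM there against 303 and 460 in auranofin 1 and 3. With atorvastatin Adam17, a second sheddase, was at 0.45 (SE 0.25). Cxcr6, the receptor of CXCL16 on T cells, named after its values were seen, read 0.286 to 2.04 CPM. Its lowest levels were in WD 3 and WD 5 (0.286 and 0.304 CPM), the libraries in which Cxcl16 was lowest among the WD aortas. These rest on few counts: 3 counts equal 0.123 and 0.152 CPM there. Combination 1 had nearly as little Cxcr6, 0.333 CPM, beside 62.3 CPM of Cxcl16.

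Of a set of 12 genes that handle lipoprotein cholesterol and fatty acids, 0 passed in any comparison, where 0 of all 18055 genes (0%) passed in edgeR. Lpl, the lipase that frees fatty acids from lipoproteins, was at 1.04 (SE 0.45) with auranofin and 1.07 (SE 0.51) with the combination, and it read 1499 CPM in auranofin 2 and 1621 CPM in combination 2, the libraries with the most Cd36, but 473 CPM in combination 1, within the WD range. Acsl1, which activates fatty acids, was at 1.07 (SE 0.46) and 1.15 (SE 0.51), with 167 CPM in combination 1, within the WD range, and 669.9 CPM in combination 2. Fabp4, the fatty acid binding protein of fat and macrophages, was at 1.09 (SE 0.55) with auranofin and 0.55 (SE 0.63) with the combination. It read 847, 1818 and 527 CPM in auranofin 1 to 3. In combination 1 and 2 it read 273 and 1186 CPM, against 162 to 691 CPM in WD. Npc1, which exports cholesterol from lysosomes, was at −0.12 (SE 0.33) with auranofin, 0.36 (SE 0.36) with the combination and 0.51 (SE 0.32) with atorvastatin. Among 14 transcription factors, 0 passed in any comparison, again beside 0% of all genes. Pparg, the nuclear receptor that drives Cd36 in fat and macrophages, was at 0.95 (SE 0.39) with auranofin and 0.82 (SE 0.44) with the combination, and its highest levels, 63.9 and 58.6 CPM, were those of combination 2 and auranofin 2, while combination 1 read 16.1 CPM, below 4 of the 5 WD libraries. Srebf2, a sterol-regulated transcription factor, was at −0.83 (SE 0.29) in auranofin against atorvastatin, Rxra, the partner of PPAR receptors, at −0.54 (SE 0.22), and Nr1h2, an oxysterol receptor, at −0.56 (SE 0.26) in atorvastatin against WD.

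The libraries were not stranded, and in the GENCODE M21 annotation an exon of 3 receptors overlaps a gene on the opposite strand: Zmynd15 for Cxcl16, Nt5dc2 for Stab1, and Gm16268 and Gm16271 for Stab2. Reads of such a pair cannot be told apart in the overlap.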

How the data were processed

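RNA of 13 whole aortas was analysed from a table of raw counts per gene, deposited by the authors as whole numbers. Per the labels' protocols, poly-A libraries without strand information were sequenced on a DNBseq instrument. Per the submitters' processing notes, the tools were STAR 2.6.1d and featureCounts of Subread 1.6.3 and the build GRCm39; how reads of near-identical genes were treated is not given in the sources used here. Genes were filtered with filterByExpr of edgeR 4.0.16 (R 4.3.3), scaled with TMM and tested two-sided with the quasi-likelihood model over all 13 libraries, with 1 mean per group, or with additive terms for the 2 drugs. P-values were adjusted over all 18055 tested genes. The pipeline was tested on simulated data. Fold changes are log2, and the SE is their size over the square root of F. Log2 CPM used a prior count of 2. Exon lengths and the overlaps with other genes came from GENCODE M21 (GRCm38), promoters from RefSeq (GRCm38.p6), and no gene position of that build is used otherwise. Alternatives were DESeq2 1.42.0, limma 3.58.1 (voom with quality weights), other size factors, 2 other filters, the compared groups alone, a replicate block and leaving out each library. No 2 libraries agreed within sampling noise (smallest chi-square over its degrees of freedom 17.2). The 9 genes and the lists were chosen with earlier results of these data known. Named were all receptors, up to 4 members of a list with the smallest p, and the 3 genes most like each receptor; 1 such list member is not reported here. Figures were drawn with matplotlib 3.10.9.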

Additional observations from a re-analysis of the deposited data

How the results depend on the processing

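No receptor of the 8 tested passed in any of the 7 comparisons under any alternative, and 351 of 368 fold changes under other settings and 463 of 544 with 1 library left out kept their sign. Without a filter on low counts 1 receptor, Marco, passed between auranofin and WD; that fit without auranofin 2, chosen after seeing the data, passed 0. Counts of all genes past the threshold, 0 in each comparison, became 13 (auranofin), 2 (atorvastatin) and 9 (combination) against WD without a filter, and 2 (auranofin), 4 (combination), 5 (between the drugs) and 11 (interaction) with DESeq2. With 1 library left out they ran from 0 to 10 for the combination against WD and from 0 to 2 for the interaction, the higher value without combination 1; the lone combination library is then assumed to vary like the other groups. With limma the fitted sign turned in auranofin versus WD Msr1 −0.14, Stab2 −0.37, and in atorvastatin versus WD Msr1 0.10, and in combination versus WD Cxcl16 0.032, Stab1 −0.0032, and in auranofin versus atorvastatin Msr1 −0.24, Cxcl16 −0.59, Stab1 −0.094, Stab2 −0.28, and in atorvastatin given or not Cxcl16 0.17, Stab2 0.46, and in drug interaction Stab2 0.89. With the replicate number as block it turned in atorvastatin versus WD Msr1 0.12, and in atorvastatin given or not Msr1 −0.090, Stab1 −0.013, and in drug interaction Msr1 −0.51, Olr1 −0.30. With 1 library left out, the values ranged across 0 for atorvastatin given or not in Cd36 from −0.050 to 0.47, Cxcl16 from −0.39 to 0.030, Msr1 from −0.23 to 0.32, Scarb1 from −0.097 to 0.15, Scarb2 from −0.0073 to 0.12, Stab1 from −0.095 to 0.19, Stab2 from −0.29 to 0.19. They did so for atorvastatin versus WD in Msr1 from −0.65 to 0.39, Scarb1 from −0.10 to 0.27, Stab2 from −0.34 to 0.38. They did so for auranofin given or not in Cxcl16 from −0.23 to 0.21, Scarb1 from −0.0014 to 0.23. They did so for auranofin versus WD in Msr1 from −0.023 to 0.78, Olr1 from −1.28 to 0.020. They did so for auranofin versus atorvastatin in Cxcl16 from −0.41 to 0.62, Msr1 from −0.022 to 1.03, Scarb1 from −0.13 to 0.24, Stab1 from −0.100 to 0.46. They did so for combination versus WD in Cd36 from −0.59 to 1.61, Cxcl16 from −0.31 to 0.33, Olr1 from −0.062 to 0.55, Scarb1 from −0.34 to 0.51, Scarb2 from −0.065 to 0.39, Stab1 from −0.093 to 0.45. They did so for drug interaction in Msr1 from −0.17 to 0.87, Olr1 from −0.33 to 0.97, Scarb1 from −0.53 to 0.36, Scarb2 from −0.33 to 0.15, Stab2 from −0.91 to 0.67. The cause was not tested. Same-numbered libraries share only a number: of 15 such pairs, 5 had deviations from the group means that correlated above 0.1, with a median r of 0.013, and 3 of 13 libraries correlated best with their own number. The block moved no count of calls, with 0 genes past the threshold in each comparison. Counts under 10 limit Olr1 and Stab2 in WD 3 and WD 5 and Marco outside auranofin 2. Cxcr6 likewise rests on few counts in WD 3, WD 5 and combination 1.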
